A study of Mus musculus with 5 samples.

Results

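Airway secretory (club) cells of the fetal mouse lung were sought among single-cell RNA counts by a rule on marker genes. The members were chosen by detected UMIs of 18 genes and by barcode quality. A barcode became a member when it had 500 or more genes and no more than 15% mitochondrial unique molecular identifiers (UMIs). It also had to hold a UMI of at least 3 of the 6 genes Cyp2f2, Cldn10, Scgb3a2, Cbr2, Selenbp1 and Hp. At most 1 of 4 alveolar type 2 genes (Lamp3, Slc34a2, Abca3, Cxcl15) and at most 1 of 4 ciliated genes (Foxj1, Ccdc153, Tmem212, Dynlrb2) could be present, and no UMI of Ptprc, Cdh5, Pecam1 or Pdgfra. The rule found 557 members among the 19491 barcodes that passed the gene and mitochondrial filters, out of 50355 barcodes in all. The levels of these 18 genes chose the members and are given below as a description. They stayed in the fits across all genes, and nothing is read from their tests.

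The counts came from whole lungs of 5 embryos at stage E18.5, dissociated with collagenase and DNase, treated with red cell lysis buffer and run as 1 droplet 3′ library per embryo. The 2 Het libraries (Het1, Het2) came from Zswim8+/- embryos and the 3 KO libraries (KO1, KO2, KO3) from Zswim8-/- embryos. Below, values of the Het libraries are given in the order Het1, Het2, and those of the KO libraries in the order KO1, KO2, KO3. No treatment, batch or wild-type group is stated by the labels, so the comparison is between 1 and 0 intact copies of Zswim8. The labels state neither the allele nor the strain. Het1, Het2 and KO3 were male and KO1 and KO2 female by Y-linked UMIs and Xist, so both female embryos lie in the KO group.

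Club cells are secretory cells of the conducting airway epithelium. They release secretoglobins, among them the club cell protein Scgb1a1, and carry enzymes that metabolise inhaled compounds. Notch signalling favours the secretory over the ciliated fate in this epithelium, and secretory cells can renew themselves and give rise to ciliated cells. Zswim8 encodes the substrate adaptor of a cullin 3 ubiquitin ligase through which microRNAs bound to certain trigger transcripts are degraded.

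The members were spread over the libraries as 168 in Het1, 144 in Het2, 105 in KO1, 68 in KO2 and 72 in KO3. They held 769233 to 1357750 UMIs per library, with medians per member of 3929 and 6122.5 in Het1 and Het2 and of 8170, 4464.5 and 11159.5 in KO1, KO2 and KO3. Their depth thus differed between libraries. No barcode sequence was shared by members of different libraries. Between 0 and 7 sequences were shared by the filtered barcodes of any library pair. A score against simulated doublets marked 2 of the 557 members. Zswim8 (GRCm38 chromosome 14, 20707552 to 20723619, plus strand) stood at 36.9 and 38.5 CPM (UMIs per 1000000 UMIs of the sum) over all filtered barcodes of the Het libraries, against 38.7, 39.2 and 40.9 CPM in the KO libraries. In the members it was 35.8 and 45.7 CPM in Het1 and Het2 against 34.4, 59.5 and 33.6 CPM in the KO libraries, and the groups overlapped. A 3′ tag need not cover a deleted stretch, so this level is no check of the labels, and every direction below rests on them.

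The data went against the label for most members. Scgb1a1, the defining club cell gene that the rule did not use, had a UMI in 33.2% of the 280 members with exactly 3 of the 6 genes, in 67.3% of the 110 with 4 and in 95.8% of the 167 with 5 or 6. Their median depths were 9474.5, 3872 and 1777 UMIs in the same order. The members with 5 or 6 genes were the shallowest in Het1, Het2 and KO2 (1410 to 1883 UMIs), but not in KO1 (9967 UMIs) or KO3 (10538 UMIs). An epithelial gene (Epcam, Cdh1 or Cldn7) was present in 59.6% of all members. This share was 60.7% in Het1, 68.8% in Het2, 41.0% in KO1, 75.0% in KO2 and 51.4% in KO3. The members are therefore named by the rule below, and not as club cells.

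Measured per 10000 UMIs, Scgb1a1 separated the members by the number of rule genes in every library. In members with 5 or 6 genes it stood at 152 and 176 in the Het libraries against 96.3, 75.4 and 149 in the KO libraries. In members with exactly 3 genes it stood at 2.58 and 0.896 in the Het libraries against 0.561, 0.335 and 0.159 in the KO libraries. No value of the members with 3 genes reached any value of those with 5 or 6. Free RNA was gauged in red-cell barcodes, which have over 50% haemoglobin UMIs, under 500 genes and should make no secretoglobins of their own. Of these, 29.1% and 18.47% held a Scgb1a1 UMI in the Het libraries against 18.7%, 7.55% and 11.002% in the KO libraries, at median depths of 2328 to 2621.5 UMIs. In members with exactly 3 genes the share was 51.4% and 37.5% in the Het libraries against 26.5%, 19.2% and 16.7% in the KO libraries, at medians of 7109 to 11913.5 UMIs. Scgb3a2, a secretoglobin of the rule itself, had a UMI in 43.7% and 33.5% of the red-cell barcodes of the Het libraries and in 36.5%, 18.4% and 33.1% of those of the KO libraries. The depths of members and red-cell barcodes differ, so the Scgb1a1 shares are not read as expression of Scgb1a1 by members with 3 genes.

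**Figure D1:**
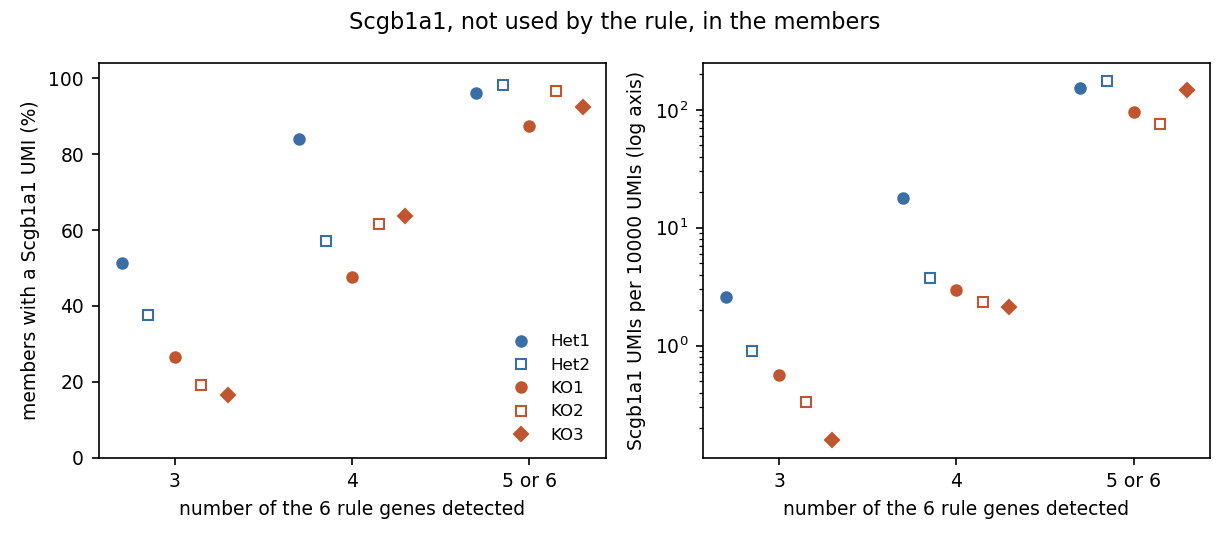
Scgb1a1 in the members by the number of the 6 rule genes detected (x axis), as the percentage of members with a UMI (left) and as UMIs per 10000 UMIs on a log axis (right). Each point is 1 library (blue, Het; orange, KO). Members with 5 or 6 genes lie from 75.4 to 176 per 10000, and members with 3 genes from 0.159 to 2.58.

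At the threshold itself, members with exactly 3 of the 6 genes were close to the barcodes just outside. There were 717 barcodes with exactly 2 genes that met every other condition. Their median depth by library was 6821 to 10806 UMIs, and 18.8% to 36.2% held a Scgb1a1 UMI, against 16.7% to 51.4% of the 280 members with 3 genes. The other conditions of the rule also shaped the members. They left out 1129 barcodes with 5 or 6 of the 6 genes, whose median depth by library was 19335.5 to 53437 UMIs, against 1410 to 10538 UMIs for the 167 such members. Of the barcodes left out, 67.6% to 88.1% by library held more than 1 of the 4 alveolar type 2 genes and 27.5% to 46.3% more than 1 of the 4 ciliated genes. Their median Scgb1a1 level by library was 0.271 to 7.40 per 10000 UMIs, against 32.9 to 253 in the members with 5 or 6 genes.

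Clustering of the members (Leiden, resolution 0.8) gave 12 clusters, of which 3 were led by secretory genes. These held 196 members, 35.2% of the members but 15.8% of their UMIs, with 72 in Het1, 60 in Het2, 19 in KO1, 33 in KO2 and 12 in KO3. One of them was of full depth, with 41 members at a median of 11789 UMIs and 6, 7, 9, 10 and 9 members in Het1, Het2, KO1, KO2 and KO3. Its leading genes were Cbr2, Scgb3a2, Lypd2, Wfdc2, Cyp2f2, Aldh1a7, Scgb1a1, Krt15 and Hp, and 97.6% of its members had an epithelial gene. The other secretory-led clusters were shallow. Cluster 1 held 124 members at a median of 1179 UMIs, 10.6% of the median of their own libraries. Besides Scgb1a1, Scgb3a2, Cyp2f2 and Hp it was led by haemoglobin genes and by 1700094D03Rik, Dynlrb2 and Fam183b, and 5.13% of its median member's UMIs were haemoglobin. Dynlrb2 is a ciliated gene of the rule. All 7 secretory markers were raised in cluster 1, and so were 5 genes of the ciliated list. Of its members, 54 and 46 came from Het1 and Het2 and 2, 20 and 2 from KO1, KO2 and KO3. Cluster 7 held 31 members at a median of 1888 UMIs and was led by Scgb3a2, Scgb1a1, Nupr1, Cbr2 and Krt15.

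The remaining 361 members lay in clusters led by genes of other lineages or by none of the lists. Clusters led by alveolar type 1 genes such as Ager, Hopx, Emp2 and Aqp5 held 138 members and 27.6% of the UMIs. Alveolar type 1 cells are the flat gas-exchange cells of the alveoli. Immune-led clusters (Tyrobp, Fcer1g, C1qa) held 69 members, and mesenchymal-led clusters (Tagln, Acta2, Col1a2, Tcf21) held 75. Another 79 members with 31.8% of the UMIs stayed unnamed, among them a cluster of 42 led by Upk3b, Aldh1a2 and Rspo1 at a median of 27433.5 UMIs. Of the 196 members in secretory-led clusters, 144 had 5 or 6 of the 6 genes. The genes that define a cluster also formed it, so these are descriptions.

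The make-up of the members differed between libraries. Alveolar type 1-led clusters held 41.0% and 37.4% of the members' UMIs in the Het libraries against 10.9%, 17.1% and 24.4% in the KO libraries. All KO libraries lay below both Het libraries here. Mesenchymal-led clusters held 12.6% and 7.48% in the Het libraries against 25.6%, 3.57% and 42.3% in the KO libraries, with overlap. Secretory-led clusters held 20.2% and 13.8% in the Het libraries against 14.2%, 18.3% and 13.3% in the KO libraries, also with overlap. In the sums over members below, fewer cells of a kind and less RNA per cell cannot be told apart.

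**Figure D2:**
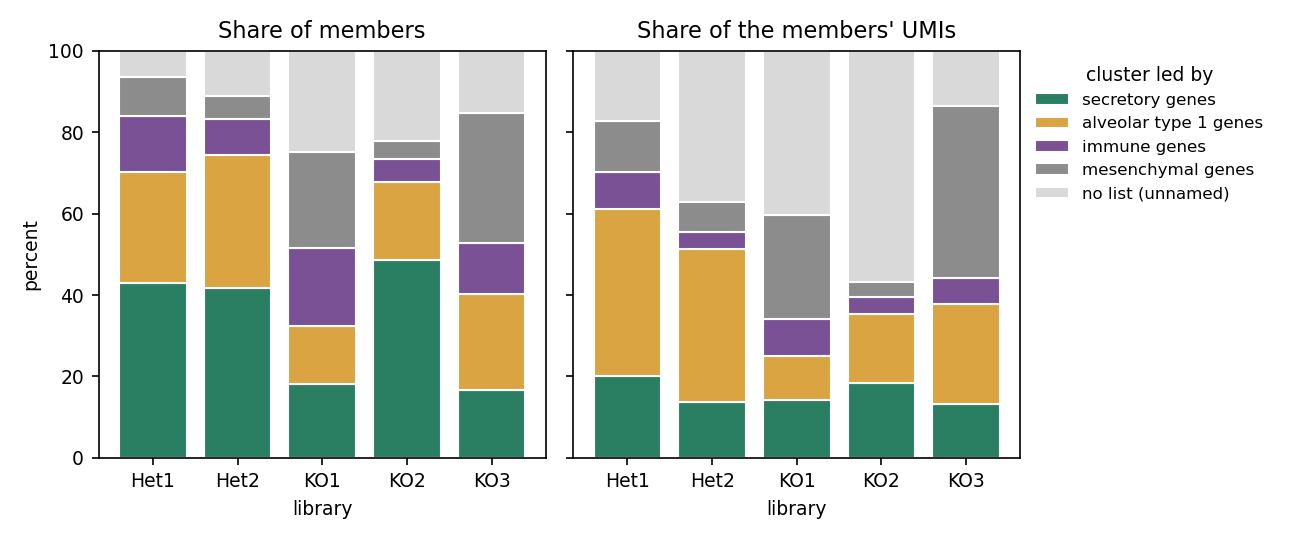
Share of the members (left) and of their UMIs (right) in clusters led by each marker list, by library (x axis), in percent. The alveolar type 1-led band of the UMIs is 41.0% and 37.4% in the Het libraries and 10.9% to 24.4% in the KO libraries, and the secretory-led band is 13.3% to 20.2% of the UMIs in all 5 libraries.

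Markers of other lineages were present across the members. At least 3 alveolar type 1 genes of a list of 13 were found in 55.5% of the members, at least 3 of 15 alveolar type 2 genes in 66.6%, at least 3 of 14 mesenchymal genes in 32.7%, at least 3 of 15 immune genes in 31.1% and at least 3 of 15 ciliated genes in 14.9%. By the fixed criterion that at least 20% of the members hold 3 genes, the lists of alveolar type 1, alveolar type 2, mesenchymal, immune and erythroid genes (98.9%) were detected. Sftpc of the alveolar type 2 list had a UMI in 92.3% and 78.9% of the red-cell barcodes of the Het libraries. In those of the KO libraries the share was 98.0%, 81.6% and 87.5%. The part of free RNA in these detections was not tested. The lists of ciliated, endothelial (7.36%), basal (3.41%) and neuroendocrine genes (0.539%) were not. Ptprc, Cdh5, Pecam1 and Pdgfra were at 0 because the rule required it, and the neuroendocrine genes Syp and Scg2 were at 0 in every member. Summed over its list, the alveolar type 1 level was 7939 and 8678 CPM in the Het libraries against 2540, 3249 and 3804 CPM in the KO libraries. The groups did not overlap.

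The first comparison asked whether the genotypes differed in how many members they had. The members made up 3.49% of the filtered barcodes in Het1 (95% exact binomial interval 2.99 to 4.04) and 3.43% in Het2 (2.90 to 4.02). In the KO group they made up 3.36% in KO1 (2.75 to 4.05), 2.05% in KO2 (1.59 to 2.59) and 1.79% in KO3 (1.41 to 2.25). KO1 was close to the Het libraries and the other KO libraries lay below them. The means were 3.46% ± 0.0425 (SD, n = 2) and 2.40% ± 0.839 (SD, n = 3), and a two-sided exact permutation test over the 5 libraries gave p = 0.2, where 0.1 is the smallest p this design allows. These intervals cover counting error only.

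Among the barcodes that met the rule of the members, of alveolar type 2 or of ciliated cells, the members were 62.7% in Het1 and 68.6% in Het2. They were 56.8% in KO1, 54.4% in KO2 and 58.1% in KO3, below both Het libraries. The exact permutation p was 0.1, the smallest possible. With each barcode thinned to 3000 UMIs before the rules, the shares were 26.6% and 25.7% in the Het libraries against 30.4%, 22.1% and 16.5% in the KO libraries, and the groups overlapped (exact permutation p = 0.7). With 1000 or more genes and no more than 10% mitochondrial UMIs required, the KO mean lay 0.316 percentage points above the Het mean. After thinning, KO2 and KO3 were still below both Het libraries and KO1 was above them. Many members in this denominator lack an epithelial gene, as given above, so it is not a share of the epithelium. With at least 4 of the 6 genes required, the members were 1.95% and 1.90% of the filtered barcodes in the Het libraries against 1.18%, 1.26% and 0.598% in the KO libraries, without overlap (exact permutation p = 0.1, the smallest possible). With at least 5 they were 1.04% and 1.40% in Het against 0.511%, 0.872% and 0.324% in KO, without overlap (exact permutation p = 0.2). With 3 genes and thinning to 3000 UMIs they were 1.95% and 1.64% in Het against 1.77%, 1.06% and 0.844% in KO, with overlap (exact permutation p = 0.3). With 3 genes and the stricter gene and mitochondrial limits they were 1.71% and 2.11% in Het against 2.66%, 1.11% and 1.63% in KO, with overlap (exact permutation p = 0.8). Counts of secretory-led members were not compared, since the clusters rest on genes that may differ between the groups.

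**Figure D3:**
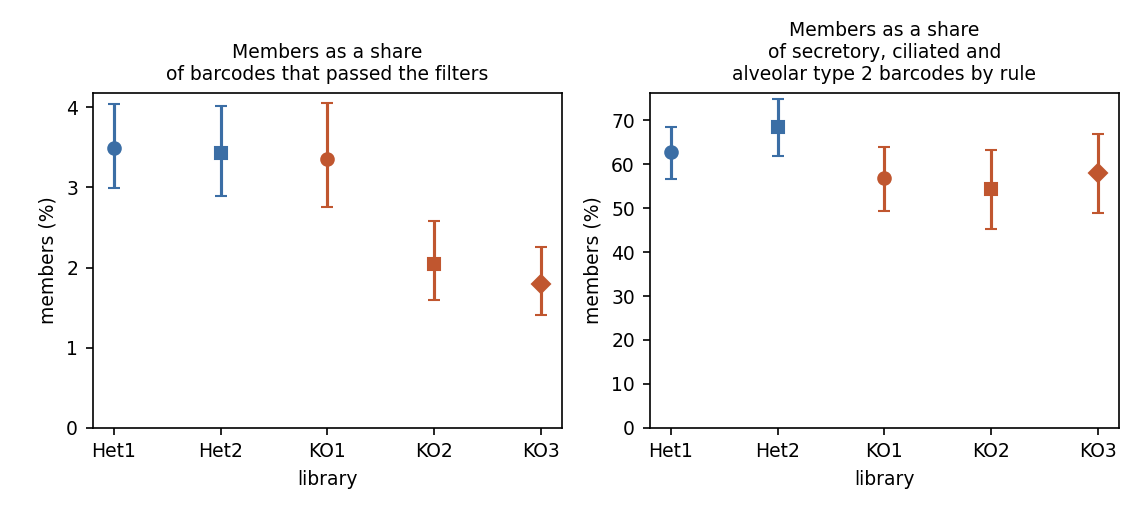
Members as a percentage of the filtered barcodes (left) and of the barcodes that met the secretory, ciliated or alveolar type 2 rule (right), by library (x axis). Bars are 95% exact binomial intervals for counting error. KO1 at 3.36% lies beside the Het libraries on the left, and the 3 KO libraries at 54.4% to 58.1% lie below the Het libraries on the right.

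Cycling members were counted as those with a UMI of Mki67 or Top2a, both proliferation genes. After thinning to 3000 UMIs, with 350 members deep enough, they were 7.61% and 3.57% in the Het libraries against 6.67%, 13.2% and 13.1% in the KO libraries (exact permutation p = 0.3). Without thinning they were 12.5% and 13.9% in the Het libraries against 17.1%, 19.1% and 29.2% in the KO libraries, with no overlap but a p of 0.2 in the exact permutation test. The smallest p of this design is 0.1, so the test could not settle whether the groups differed. The members mix lineages, as given above, so this is not a share of cycling secretory cells.

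The secretory genes themselves were then read over all members of each library. Scgb1a1 (ENSMUSG00000024653, chromosome 19, 9083636 to 9087958, minus strand) stood at 4581 CPM in Het1 and 3658 CPM in Het2, and at 1720, 1404 and 2312 CPM in the KO libraries. The means were 4120 ± 653 CPM (SD, n = 2) in Het and 1812 ± 461 CPM (SD, n = 3) in KO. It was lower in all 3 KO libraries, with a log2 fold change of -1.18 (SE 0.23), but the edgeR adjusted p of 0.120 missed the threshold of 0.05. The fold was -0.65 with Epcam, Cdh1 or Cldn7 required (edgeR adjusted p = 0.573). It was -0.83 with embryo sex as a covariate and -1.60 without the alveolar type 1-led clusters (edgeR adjusted p = 0.414 in both). The size of the Scgb1a1 difference thus depended on the fit. Of its UMIs in the Het libraries, 96.9% lay in secretory-led clusters. Among the genes of the rule, given as levels only, Scgb3a2 was 8156 and 5899 CPM in the Het libraries against 4045, 9603 and 3726 CPM in the KO libraries. Hp, the haemoglobin-binding haptoglobin, was 792 and 548 CPM in the Het libraries against 366, 510.5 and 311 CPM in the KO libraries. Cldn10, a tight junction claudin, was 324 and 312 CPM in the Het libraries against 304.5, 253 and 294 CPM in the KO libraries. Scgb3a2 overlapped between the groups, and Hp and Cldn10 were lower in each KO library. Cbr2, a carbonyl reductase, was 900.2 and 749 CPM in the Het libraries against 588, 695 and 660.3 CPM in the KO libraries, and Selenbp1, a selenium-binding protein, was 819 and 718 CPM against 584, 414 and 464 CPM. Both were lower in each KO library. Cyp2f2, the club cell cytochrome P450, overlapped at 273 and 217 CPM in the Het libraries against 212.5, 273 and 177 CPM in the KO libraries.

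The UMIs of all members were then summed by library to compare the genotypes gene by gene. Of 9431 genes tested with edgeR's quasi-likelihood test, 9 passed an adjusted p of 0.05, and all 9 fell in the KO libraries. That is 0.0954% of the genes tested, with 0.0% higher. A total of 945 genes had an unadjusted p under 0.05, and DESeq2 called 84, of which 5 were higher. Of all genes tested, 14.1% were lower in every KO library than in both Het libraries and 12.2% were higher.

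C3, the central protein of the complement cascade, had the smallest adjusted p (ENSMUSG00000024164, chromosome 17, 57203970 to 57228136, minus strand). It was 299 and 265 CPM in the Het libraries against 38.4, 47.1 and 37.6 CPM in the KO libraries, a mean of 282 ± 23.5 (SD, n = 2) against 41.0 ± 5.26 (SD, n = 3). Its log2 fold change was -2.78 (SE 0.18, edgeR adjusted p = 0.00259). Its UMIs were found in 24 members of each Het library and in 13, 15 and 13 members of KO1, KO2 and KO3. In the Het libraries 91.1% of them lay in unnamed clusters and 5.6% in secretory-led clusters. Within the secretory-led clusters alone C3 was 167 and 52.6 CPM in the Het libraries against 16.3, 88.2 and 50.7 CPM in the KO libraries, with overlap. The fall of C3 over all members therefore lay mostly outside the members that carried the secretory genes.

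Another 7 of the 9 genes had most of their Het UMIs in alveolar type 1-led clusters. These were Rtkn2 (96.9%), Cdkn2b, a cyclin-dependent kinase inhibitor (98.0%), Emp2, a tetraspan membrane protein (91.3%), Scnn1a, the alpha subunit of the epithelial sodium channel (87.3%), Clic3 (83.3%), Cystm1 (80.2%) and the peroxidase Prdx6 (76.7%). Rtkn2 was 156 and 139 CPM in the Het libraries against 19.2, 8.7 and 26.7 CPM in the KO libraries (log2 fold change -2.98, SE 0.33, edgeR adjusted p = 0.0435). Emp2 was 1537 and 1497 CPM in the Het libraries against 451, 488 and 607 CPM in the KO libraries (log2 fold change -1.56). Scnn1a was 201 and 181 CPM in the Het libraries against 55.6, 63.2 and 71.2 CPM in the KO libraries (log2 fold change -1.59). No KO library reached a Het library in any of these genes. The ninth gene, Cstdc5, a member of the cystatin family, was 52.7 and 48.6 CPM in the Het libraries against 11.1, 5.0 and 8.9 CPM in the KO libraries. Its Het UMIs were spread, with 36.9% in secretory-led and 26.2% in immune-led clusters. It was also present in red-cell barcodes, at 0.274 and 0.201 UMIs per barcode in the Het libraries against 0.086, 0.094 and 0.097 in the KO libraries.

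With the alveolar type 1-led clusters left out, 1 of 8451 genes passed, and this was C3 (log2 fold change -3.22, edgeR adjusted p = 0.00291). Emp2 then had a log2 fold change of -0.16, Prdx6 of -0.26, Cystm1 of -0.46, Scnn1a of -0.57 and Clic3 of -0.95, none past the threshold. Cstdc5 had one of -2.91, as large as over all members, and did not pass (edgeR adjusted p = 0.133). Rtkn2 and Cdkn2b were then too low to be tested. Requiring Epcam, Cdh1 or Cldn7 left 0 calls in edgeR (591 genes at an unadjusted p under 0.05), as did embryo sex as a covariate (913 genes) and leaving out KO1 (697 genes). The folds of C3 and Emp2 stayed near their size. C3 had a log2 fold change of -2.65 with an epithelial gene required and of -2.90 with the sex covariate (edgeR adjusted p = 0.0578). Emp2 had -1.33 and -1.32. The fold of Scgb1a1 was smaller in both fits, as given above. Without KO3 the count was 86 (8 higher), without KO2 it was 30 (10 higher), without Het2 it was 1 and without Het1 it was 6.

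**Figure D4:**
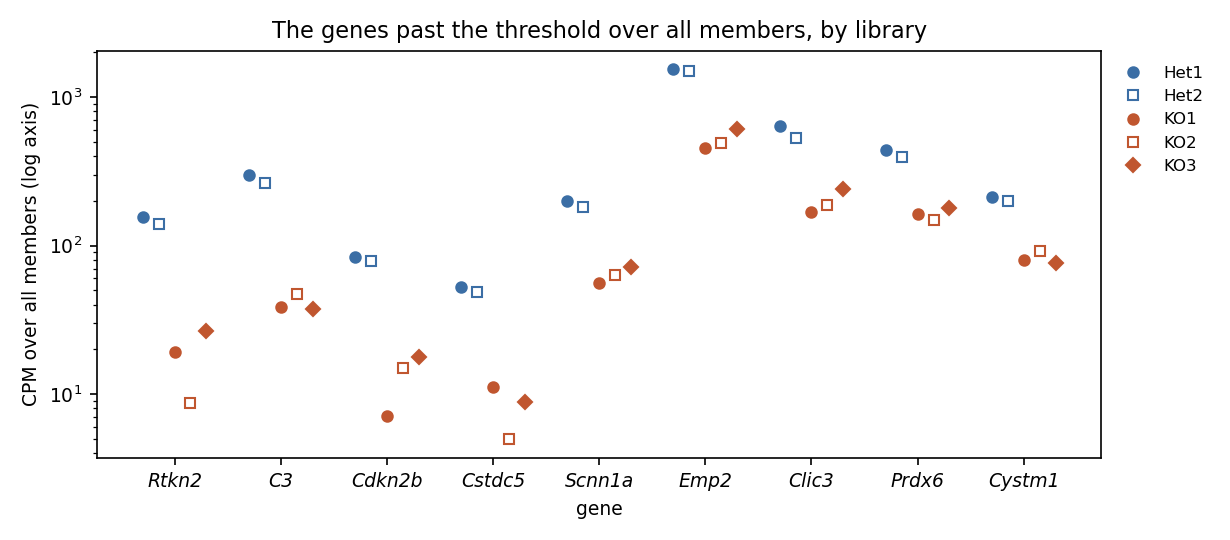
CPM over all members of the 9 genes past the threshold (x axis), on a log axis, with 1 point per library (blue, Het; orange, KO). For each gene the 3 KO libraries lie below both Het libraries, as for Rtkn2 at 139 and 156 against 8.7 to 26.7 CPM.

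Lists of genes for the functions of the airway epithelium gave few calls over all members, read against the 0.0954% of all genes. Of 20 tested genes of xenobiotic metabolism (enzymes such as carboxylesterases, glutathione transferases and aldehyde dehydrogenases) none passed in edgeR. Their median log2 fold change was -0.04, where the median of all genes was 0.03. Of 17 tested genes of secreted products and host defence none passed, with a median of -0.39. Of 20 Notch pathway genes none passed (median 0.03), and of 32 airway transcription factors none passed (median -0.13). Of 16 ion transport genes 2 fell, Scnn1a and Clic3 (median -0.48), and of 21 redox genes 1 fell, Prdx6 (median -0.20). All 3 lay mostly in alveolar type 1-led clusters, as given above. The 22 tested genes of junctions and polarity had a median of -0.65 with 0 calls, and 15 of them were lower in every KO library, where 14.1% of all genes were. Among these Krt8 had a log2 fold change of -1.13 (edgeR adjusted p = 0.0741) and Krt19 of -0.85. Of their Het UMIs, 67.2% and 60.8% lay in alveolar type 1-led clusters. In the fit of the secretory-led clusters given below, the 18 tested junction genes had a median of 0.01 with 0 calls. There 3 of them were lower and 2 higher in every KO library, where 10.6% and 11.8% of all genes were. The 8 tested ion transport genes had a median of 0.49 in that fit.

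The alveolar type 1 list moved with the calls. Of its 13 genes 2 fell (Rtkn2 and Emp2), the median log2 fold change was -1.56, and 11 were lower in every KO library, where 14.1% of all genes were. Alveolar type 1-led clusters held a smaller share of the members' UMIs in every KO library, as given above. Fewer such cells and less RNA per cell cannot be told apart here. Ager was 2805 and 2521 CPM in the Het libraries against 517, 513 and 1036 CPM in the KO libraries (log2 fold change -1.95, edgeR adjusted p = 0.0741). Of 13 tested mesenchymal genes none passed, and their median was 1.06. Of 6 tested ciliated genes none passed (median -1.23), and 4 were lower in every KO library. Of 14 tested immune genes none passed (median -0.09), and of 7 erythroid genes none passed (median -0.70), where the list sum was 59385 and 22103 CPM in the Het libraries against 53712, 13718 and 8821 CPM in the KO libraries. The part of these lineages in the calls was not tested beyond the fits without the alveolar type 1-led clusters. The 24 tested genes of insulin-like growth factor signalling and imprinting had a median of 0.32 with 0 calls, and 8 were higher in every KO library, where 12.2% of all genes were. The 30 genes of microRNA decay (the ligase, Argonaute and known trigger or host transcripts) had a median of 0.01 and 0 calls, and 7 were higher in every KO library.

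To read the genotypes in members that carried the secretory programme, the sums were repeated over the 196 members of secretory-led clusters. This fit was chosen after the make-up of the members was seen, and it rests on 12 to 72 members per library. After the low-count filter the sums were 195779 and 159053 UMIs in the Het libraries against 125069, 113602 and 111965 in the KO libraries. Those of the full-depth cluster, filtered in the same way, were 94673 and 70456 UMIs against 96568, 84704 and 105221. Shallow members thus made up more of each Het sum than of any KO sum. Their part in the differences below was not tested. These sums also held ciliated genes, whose list came to 910 and 758 CPM in the Het libraries. In the KO libraries it came to 127, 619 and 411 CPM. Its 3 tested genes had a median log2 fold change of -2.41 with 0 calls. Of these, 2 were lower in every KO library, where 10.6% of all genes were. The sums are thus not of secretory RNA alone, and the part of ciliated RNA was not tested. Scgb3a2 was the most abundant secretory gene, at 46151 and 51232 CPM in the Het libraries against 30892, 61355 and 29963 CPM in the KO libraries, with overlap. In KO2 a single member held 58.9% of its UMIs and in KO1 a single member held 60.8%. Scgb1a1 was 26018 and 31944 CPM in the Het libraries against 13361, 8866 and 19443 CPM in the KO libraries. It was lower in each KO library (log2 fold change -1.06, SE 0.30), and the edgeR adjusted p was 0.313. A single member held 51.3% of its UMIs in KO1 and 55.5% in KO3, against 21.3%, 29.6% and 17.5% in Het1, Het2 and KO2. In the full-depth cluster alone Scgb1a1 was 31170 and 40287 CPM in the Het libraries against 14976, 9559 and 21046 CPM in the KO libraries. Each KO value again lay below both Het values, from 6 to 10 members per library. The difference in Scgb1a1 passed the test neither over all members nor over the secretory-led clusters.

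**Figure D5:**
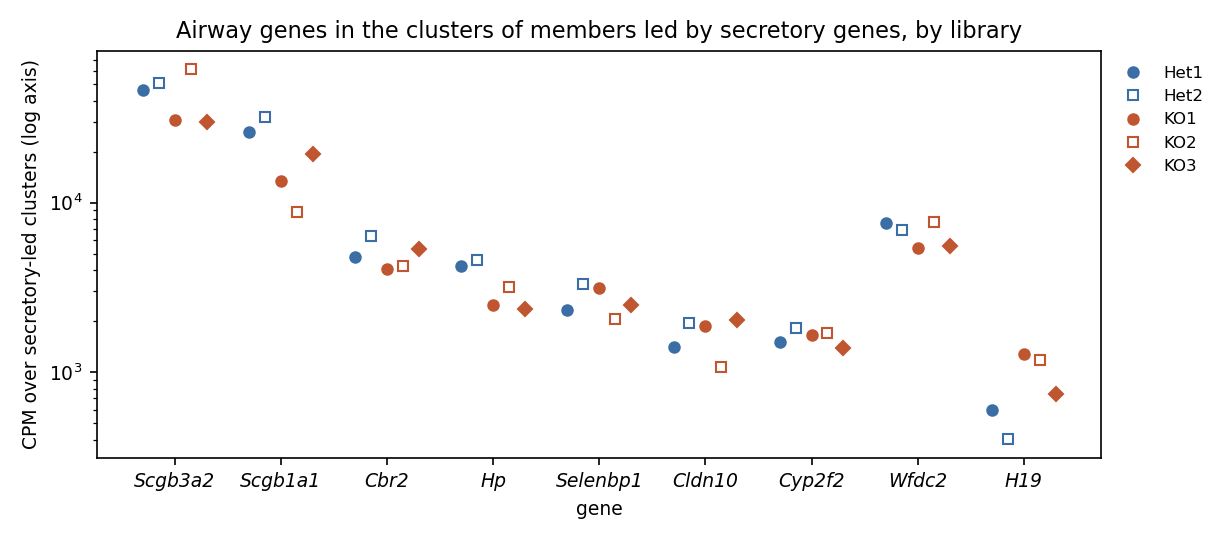
CPM of airway genes and H19 (x axis) over the members in secretory-led clusters, on a log axis, with 1 point per library (blue, Het; orange, KO). Scgb1a1 lies at 26018 and 31944 CPM in the Het libraries and at 8866 to 19443 CPM in the KO libraries, while Scgb3a2, Cbr2 and Cyp2f2 overlap.

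The other secretory products overlapped or rested on few members. Wfdc2, a secreted protease inhibitor of airway cells, was 7595 and 6903 CPM in the Het libraries against 5405, 7719 and 5585 CPM in the KO libraries. Scgb3a1, a secretoglobin of upper airway cells, was 741 and 902 CPM in the Het libraries against 114, 329 and 8.45 CPM in the KO libraries. It lay in very few members, since 1 member held 96.2% of its UMIs in Het1 and 100.0% in Het2, so no level of a group can be read from it. Reg3g, a secreted lectin, was 624 and 1685 CPM in Het1 and Het2, 358 and 1972 CPM in KO1 and KO2, and 0 in KO3, where a count of 0 covers 12 members. Of 12 tested genes of secreted products none passed in edgeR, with a median log2 fold change of -0.24.

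Enzymes of xenobiotic metabolism were measured in the secretory-led clusters at moderate levels. Ces1d, a carboxylesterase, was 986 and 895 CPM in the Het libraries against 601, 625 and 794 CPM in the KO libraries (log2 fold change -0.48, edgeR adjusted p = 0.705). Gsta4, a glutathione transferase, was 574 and 645 CPM in the Het libraries against 496, 457 and 515 CPM in the KO libraries. Both were lower in each KO library, and neither passed. Of 11 tested genes of this list none passed and 5 were lower in every KO library, where 10.6% of all 1991 genes were. Their median log2 fold change was -0.48, and that of all genes was 0.03. Of 15 redox genes none passed, 8 were lower in every KO library and the median was -0.36. Among them Fth1, the ferritin heavy chain, was 3137 and 3034 CPM in the Het libraries against 1999, 1571 and 2197 CPM in the KO libraries. In the full-depth cluster alone the groups overlapped, at 2303 and 2635 CPM in the Het libraries against 2178, 1779 and 2319 CPM in the KO libraries.

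None of the regulators of airway fate passed the test. Hes1, the Notch target of secretory cells, was 646 and 480 CPM in the Het libraries against 423, 497 and 397 CPM in the KO libraries, with overlap. Of 18 transcription factors none passed and the median log2 fold change was 0.19. Klf5, Nfib, Sox2 and Nr3c1 were higher in every KO library, and of all genes 11.8% were. Nfib was 251 and 211 CPM in the Het libraries against 341, 257 and 380 CPM in the KO libraries (edgeR adjusted p = 0.783). Epcam was 490 and 487 CPM in the Het libraries against 520, 745 and 651 CPM in the KO libraries. Krt15, a keratin of airway progenitor and secretory cells at this stage, overlapped, with 775 and 829 CPM in the Het libraries against 1967, 1042 and 676 CPM in the KO libraries.

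Genes of imprinting and growth were higher in each KO library for H19 and Igf2, without passing. H19, an imprinted long non-coding RNA (ENSMUSG00000000031, chromosome 7, 142575529 to 142578143, minus strand), was 602 and 401 CPM in the Het libraries against 1276, 1178 and 744 CPM in the KO libraries (log2 fold change 1.08, SE 0.31, edgeR adjusted p = 0.313). Igf2, its neighbour that encodes a growth factor, was 267 and 296 CPM in the Het libraries against 398, 425 and 363 CPM in the KO libraries. All KO values of both genes lay above both Het values. In red-cell barcodes H19 was 0.0835 and 0.0679 UMIs per barcode in the Het libraries against 0.534, 0.147 and 0.213 in the KO libraries, also higher in each KO library, and the part of free RNA was not tested in this fit. Over all members H19 was 860 and 853 CPM in the Het libraries against 1754, 1805 and 1114 CPM in the KO libraries (log2 fold change 0.86, edgeR adjusted p = 0.239).

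In the secretory-led clusters 8 of 1991 genes passed in edgeR, all lower in the KO libraries (0.402% of those tested), and none of them was in the lists of airway functions. A total of 150 had an unadjusted p under 0.05, and DESeq2 called 6. The count was 3 without Het1, 5 without Het2 and 18, of which 7 were higher, without KO3. Pf4, Clec1b, Gng11 and Nrgn are genes of platelets and megakaryocytes, S100a8 of neutrophils, Lyz2 of myeloid and alveolar type 2 cells, Srgn of many blood cells, and Ctla2a encodes a cathepsin inhibitor. Pf4 was 513 and 842 CPM in the Het libraries against 24.4, 16.03 and 16.9 CPM in the KO libraries, and 1 member held 69.6% of its UMIs in Het1 and 88.3% in Het2. Ctla2a was 680 and 322 CPM in the Het libraries against 16.3, 16.03 and 8.45 CPM in the KO libraries, and 1 member held 83.6% in Het1 and 79.6% in Het2. Clec1b and Nrgn had 44 and 41 UMIs in the Het libraries together and 0 in the KO libraries. Set against 3 counts over the KO group they were at least 16.2-fold and 15.1-fold lower. In Clec1b a single member held 86.7% of the UMIs in Het1 and 85.7% in Het2, and in Nrgn 66.7% and 90.0%. Most of the Het level of these 4 genes was thus the content of 1 member per library.

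S100a8 and Lyz2 were spread over more members. S100a8 was 424 and 211 CPM in Het1 and Het2, with a UMI in 40 and 22 members, and 8.13, 40.1 and 8.45 CPM in the KO libraries, with a UMI in 1, 5 and 1 members. Its level in red-cell barcodes, the gauge of free RNA, was 0.539 and 0.429 UMIs per barcode in the Het libraries against 0.147, 0.203 and 0.2004 in the KO libraries. Lyz2, lysozyme, was 189 and 230 CPM in the Het libraries against 40.6, 56.1 and 25.3 CPM in the KO libraries, with 0.301, 0.251, 0.128, 0.143 and 0.226 UMIs per red-cell barcode in Het1, Het2, KO1, KO2 and KO3. Both were higher in the red-cell barcodes of the Het libraries too, and the part of free RNA in these calls was not tested in this fit. In the full-depth secretory-led cluster 0 of 1564 genes passed in edgeR, with 79 at an unadjusted p under 0.05. DESeq2 was not run there.

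The 138 members in alveolar type 1-led clusters were fitted in the same way, also after their make-up was seen. With 46 and 47 members in the Het libraries against 15, 13 and 17 in the KO libraries, 89 of 3421 genes passed in edgeR. Of these 36 rose (1.05% of those tested) and 53 fell (1.55%). The rule gene Selenbp1 was among the 53, so 52 falls were of genes that did not choose the members. H19 rose from 112 and 29.3 CPM in the Het libraries to 315, 553 and 450 CPM in the KO libraries (log2 fold change 2.67, SE 0.31, edgeR adjusted p = 6.3e-08). Dlk1, an imprinted gene for a membrane protein related to Notch ligands, rose from 28.1 and 33.5 CPM in the Het libraries to 122, 112 and 286 CPM in the KO libraries (log2 fold change 2.64). Fbn2, which encodes the microfibril protein fibrillin 2, rose from 131 and 123 CPM in the Het libraries to 498, 432 and 619 CPM in the KO libraries (log2 fold change 2.05). Ppp1r14c, an inhibitor of protein phosphatase 1, rose from 37.5 and 37.7 CPM in the Het libraries to 142, 207 and 147 CPM in the KO libraries (log2 fold change 2.10). The KO libraries lay above both Het libraries in all 4 genes. In red-cell barcodes H19 and Fbn2 were also higher in each KO library, H19 at the levels given above and Fbn2 at 0.0126 and 0.0117 UMIs per barcode in the Het libraries against 0.0354, 0.0443 and 0.0430 in the KO libraries. Dlk1 and Ppp1r14c overlapped there. Dlk1 was 0.0935 and 0.0827 UMIs per red-cell barcode in the Het libraries against 0.163, 0.0632 and 0.123 in the KO libraries, and Ppp1r14c was 0.0229 and 0.0143 against 0.1003, 0.0222 and 0.0247. The part of free RNA in these calls was not tested.

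These 4 genes passed under all 9 alternatives to this fit, the sex covariate and each left-out library among them. Rtkn2 and S100a6 fell under all 9 as well. These genes were named after their values were seen, so their stability is a description. Other called genes of large change passed less often, from 1 (Lims2) to 8 (Phgr1) of the 9. Plac1, with a log2 fold change of 4.39, passed under 5, and Arf2, with -1.78, under 3. S100a6, a calcium-binding protein, was 4353 and 3998 CPM in the Het libraries against 1058, 984 and 2150 CPM in the KO libraries (log2 fold change -1.55). Of the 13 genes of the alveolar type 1 list 7 fell and none rose, with a median log2 fold change of -0.66. Of all genes tested in this fit, 1.55% fell and 1.05% rose. Genes of this list also led the clusters that chose these members, so its count is a description. Emp2 fell by 0.66 on the log2 scale here, against 1.56 over all members. Prdx6 fell by 1.29, close to its 1.35 over all members. Of 17 genes of growth and imprinting 4 rose and 1 fell, with a median of 0.49. The count of 89 became 33 with the sex covariate, 56 without Het1, 37 without Het2 and 44 without KO3.

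Whether a genotype difference was particular to the members was tested against alveolar type 2 barcodes, the surfactant-producing cells of the alveoli found by a rule of the same kind. There were 221 of these, with 36 to 62 per library. Of 8761 genes 1 passed the test of the difference between the cell groups in edgeR (0.0114%), with 629 at an unadjusted p under 0.05. This was Col6a1, a collagen VI chain. None passed without Het1, without KO1 or without KO2 (edgeR, 362, 387 and 608 at an unadjusted p under 0.05), while 28 passed without Het2 and 3 without KO3. In the members Col6a1 was 217.5 and 236 CPM in the Het libraries against 396, 237 and 215.5 CPM in the KO libraries, with overlap. In the alveolar type 2 barcodes it was 368 and 191 CPM in the Het libraries against 60.9, 28.5 and 38.2 CPM in the KO libraries. The log2 difference of the genotype effects was 3.02 (SE 0.36, edgeR adjusted p = 0.0455), and the members' Col6a1 lay almost wholly in mesenchymal-led and unnamed clusters. Of the 14 genes of the mesenchymal list, 10 were tested in the alveolar type 2 barcodes. None passed in edgeR, 5 had negative log2 fold changes (Col3a1 of -1.68 and Col1a1 of -1.26 among them) and the median was 0.0043. Their summed level there was 1983 and 643 CPM in the Het libraries against 1232, 1212 and 613 CPM in the KO libraries, with overlap and with Pdgfra at 0 by the rule. Their part in the Col6a1 result was not tested.

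Scgb1a1 did not pass the test of a difference in genotype effect from the alveolar type 2 barcodes. Its difference was 0.32 (edgeR adjusted p = 0.934), where its own level in alveolar type 2 barcodes was 68.6 and 34.5 CPM in the Het libraries against 32.4, 7.49 and 16.1 CPM in the KO libraries. Red-cell barcodes held 0.470 and 0.274 Scgb1a1 UMIs per barcode in the Het libraries against 0.229, 0.102 and 0.140 in the KO libraries. Each KO value lay below both Het values there too. The part of free RNA in the alveolar type 2 level was not tested, so nothing is read from this comparison of Scgb1a1. C3 fell in both, by 2.78 in the members and by 3.72 in the alveolar type 2 barcodes on the log2 scale, with a difference of 0.83 (edgeR adjusted p = 0.893). The same libraries gave both cell groups. Ciliated barcodes numbered 61 and 30 in the Het libraries against 18, 14 and 11 in the KO libraries. The KO libraries fell short of the minimum of 20, and the comparison with them was not fitted.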

How the data were processed

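Single-cell RNA of 2 Het and 3 KO lungs was read. Per the submitters' processing notes the authors used Cell Ranger 4.0.0 and mm10. They deposited UMI counts as whole numbers for 32285 genes and each barcode. The annotation and barcode filter are not given in the sources used here. The 5 libraries held 56608582 to 93708304 UMIs. Coordinates are from GENCODE M21 (GRCm38), joined by Ensembl ID and counted from 1. The members and lists were chosen with earlier results of these data known.

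UMIs were summed by library, since cells are not replicates, so the tests compared libraries of separate embryos. The edgeR test moderates the variance of each gene by that of the other genes in the same fit. Its p-values therefore do not measure the spread of a gene between embryos alone. Sums were fitted with edgeR 4.0.16 (TMM, filterByExpr, quasi-likelihood, two-sided, Benjamini-Hochberg over all genes tested, adjusted p under 0.05). CPM used TMM-scaled totals. In the comparison with alveolar type 2 barcodes, each library was a block. Shares were compared by exact permutation. Doublets were scored and removed only in an alternative.

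Members were clustered on 2000 variable genes and 20 principal components (Leiden). A cluster was led by a list with at least 2 of its genes among the 10 leading genes and 3 detected, a rule set after the clusters were seen. Named genes were Zswim8, the markers, called genes of at least 20 CPM without overlap by largest change, and up to 5 per list. In the secretory-led clusters every called gene was named. Further genes, such as Scgb3a1, Reg3g, Igf2, Epcam, Krt15 and those of the alveolar type 1-led fit, were chosen after their values were seen.

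Counts were simulated with 200 genes changed by a log2 fold change of 1 in either direction. The fit of all members recovered 24.0% with 3 false calls, and that of the secretory-led clusters 13.5% with 1. The simulated libraries did not differ in the make-up of the members, as the real ones did. Alternatives were DESeq2 1.42.0, other scalings, filters and marker rules, thinning, sex, replicate numbers as a block, and leaving out each library. The ciliated comparison was not run.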

Additional observations from a re-analysis of the deposited data

Results flagged for a closer look

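The effect of the genotype on Col6a1, a collagen VI chain (GRCm38 chromosome 10, 76708792 to 76726168, minus strand), differed between the members and the alveolar type 2 barcodes by a test of the difference itself, with a log2 value of 3.02 (SE 0.36, edgeR adjusted p = 0.0455). This difference was called without doublet-scored barcodes and without KO3. It was not called with library size alone, without KO1, without KO2 or in the secretory-led clusters. Col6a1 overlapped between the genotypes in the members, with 217.5 and 236 CPM in the Het libraries against 396, 237 and 215.5 CPM in the KO libraries. It fell in the alveolar type 2 barcodes, with a log2 fold change of -2.73 (edgeR adjusted p = 0.00113). In the members 69.7% of its Het UMIs lay in unnamed and 28.1% in mesenchymal-led clusters, and 2.0% in secretory-led clusters. In the same alveolar type 2 barcodes Col3a1 had a log2 fold change of -1.68, Col1a1 of -1.26 and Col1a2 of -0.58, none past the threshold, and the part of mesenchymal RNA in the Col6a1 result was not tested.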

How the results depend on the processing

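Over all members 9 genes passed. The count was 84 with DESeq2, 1 with library size alone, 510 with no low-count filter, 57 after thinning to 3000 UMIs and 158 without cycling members. It was 4 without doublet-scored barcodes, 4 with red-cell UMIs subtracted and 2 with 1000 or more genes required. It was 2 with at least 4 and 115 with at least 5 of the 6 genes, 0 with an epithelial gene required and 0 with the sex covariate. It was 89 in the alveolar type 1-led clusters and 1 without them. Leaving out each library gave 0 to 86, with 0 without KO1 and 86 without KO3.

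In the secretory-led clusters 8 genes passed, 0 in the full-depth cluster, 4 with library size alone and 3 to 18 with each library left out. In the alveolar type 1-led clusters 89 passed, 45 with DESeq2, 56 with library size alone, 33 with the sex covariate and 37 to 96 with each library left out. Against alveolar type 2 barcodes 1 passed, 0 with library size alone, 3 without doublets, 12 in secretory-led clusters and 0 to 28 with each library left out. The share of members among barcodes that met any of the 3 cell rules turned to 0.316 percentage points higher in KO at 1000 or more genes.

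Replicate numbers pair only Het1 with KO1 and Het2 with KO2, whose deviations correlated at 0.039 and 0.118. With 2 Het libraries the deviations mirror each other, so Het2 with KO1 gave -0.039 and Het1 with KO2 gave -0.118. Het1 with KO3, of unlike number, gave 0.091. These values cannot show whether the numbers pair libraries. With the replicate number as a block 259 genes passed over all members, 3 in the secretory-led and 54 in the alveolar type 1-led clusters.

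The log2 fold change turned with at least 5 of the 6 genes for Scnn1a (0.49), Emp2 (1.04), Prdx6 (0.28), Cystm1 (0.49), Cldn18 (3.08), Ccnd3 (-1.33), Eln (-6.34), Napsa (3.30) and Col6a1 (-3.62). It turned in the secretory-led clusters for Emp2 (0.0016) and Gng11 (-3.66), and in the alveolar type 1-led clusters for Ccnd2 (1.22). A fold of a gene at 0 in one group depends on the prior count. The cause of these changes was not tested. Few members per library and 1 member holding much of a gene's UMIs limit the secretory-led values.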
